A study of Mus musculus with 8 samples.

Results

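The orphan nuclear receptor genes Nr4a1, Nr4a2 and Nr4a3, the zinc finger genes Egr1, Egr2 and Egr3, and the AP-1 genes Fos, Fosb, Jun and Junb were followed through 8 mouse libraries. They are 10 of the 22911 genes with a named probe, and their probes were found by symbol, through the RefSeq accession of each probe. Together they had 16 of the 56605 non-control probes: 5 genes had 1 probe and 5 had several. Gene expression was measured on one-colour arrays, with 1 array for each of 8 groups. The T cell groups were regulatory T cells (Treg, Foxp3-dependent CD4+ cells that hold immune responses back) and the other CD4+ T cells (nonTreg). Each came once from wild type (WT) ischemic brain, day 14 after the stroke, and once from spleen, whose donors were untreated. The tissue groups were brain slices, again at day 14, from 4 settings: WT sham, WT ischemia, DEREG sham and DEREG ischemia. Slices came from the side of the lesion, and the labels give the same side for sham mice. In DEREG mice, Foxp3 control sequences drive a diphtheria toxin receptor, which renders Treg open to depletion by that toxin. It is not stated in the labels whether toxin was given, how many mice gave each sample, their age, or how Treg were separated from nonTreg.

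Immediate early genes are switched on within minutes of a signal without new protein synthesis, through factors that are already in the cell, such as SRF with its ELK partners and CREB. In T cells the antigen receptor drives Nr4a1, Egr2, Egr3, Fos and Jun, and Nr4a and Egr2 proteins in turn hold T cell activation in check and support Treg. In neurons the same genes follow synaptic activity, with Egr1, Egr3, Nr4a1, Fos and Fosb among the best known markers of it. Fos and Jun proteins pair to form AP-1, a factor that also answers stress, and several of these genes are known to be induced by tissue dissociation.

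Sequences just upstream of the gene starts are shown first, for the members that differed most among the T cell arrays and for Egr2, which went its own way there. They are the 250 bases before the start, from RefSeq (GRCm38.p6), written 5′ to 3′ on the strand of the gene. Capitals mark matches to the letters TGACG (the core of the cAMP response element bound by CREB), to GCGGGGGCG (an Egr element) and to the CArG box bound by SRF, on either strand.
Nr4a1 (chr15:101266596-101266845, plus strand): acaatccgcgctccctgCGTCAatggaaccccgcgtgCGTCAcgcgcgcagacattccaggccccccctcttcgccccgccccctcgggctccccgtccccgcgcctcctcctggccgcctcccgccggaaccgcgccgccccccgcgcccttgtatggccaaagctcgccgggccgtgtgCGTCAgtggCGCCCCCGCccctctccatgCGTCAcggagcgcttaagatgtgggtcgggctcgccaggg
Nr4a2 (chr2:57124004-57124253, minus strand): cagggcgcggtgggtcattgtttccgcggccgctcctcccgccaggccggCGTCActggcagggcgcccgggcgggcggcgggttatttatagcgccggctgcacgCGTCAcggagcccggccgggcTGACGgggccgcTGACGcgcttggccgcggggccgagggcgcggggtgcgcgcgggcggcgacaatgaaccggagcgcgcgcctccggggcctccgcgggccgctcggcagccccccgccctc
Nr4a3 (chr4:48045055-48045304, plus strand): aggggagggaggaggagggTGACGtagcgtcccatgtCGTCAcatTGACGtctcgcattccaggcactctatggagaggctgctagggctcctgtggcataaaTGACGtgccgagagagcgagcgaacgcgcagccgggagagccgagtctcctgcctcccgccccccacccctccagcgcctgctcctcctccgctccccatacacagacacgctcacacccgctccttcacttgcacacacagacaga
Fos (chr12:85473640-85473889, plus strand): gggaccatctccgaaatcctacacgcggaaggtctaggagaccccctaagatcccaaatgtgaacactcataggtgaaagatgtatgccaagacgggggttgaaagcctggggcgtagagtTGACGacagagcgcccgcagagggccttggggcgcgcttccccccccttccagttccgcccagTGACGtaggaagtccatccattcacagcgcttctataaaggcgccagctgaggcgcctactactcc
Fosb (chr7:19310046-19310295, minus strand): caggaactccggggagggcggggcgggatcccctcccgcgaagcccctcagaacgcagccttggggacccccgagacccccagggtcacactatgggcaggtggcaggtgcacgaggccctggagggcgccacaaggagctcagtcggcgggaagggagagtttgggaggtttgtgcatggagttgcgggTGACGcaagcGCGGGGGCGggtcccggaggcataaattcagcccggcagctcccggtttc
Egr2 (chr10:67537619-67537868, plus strand): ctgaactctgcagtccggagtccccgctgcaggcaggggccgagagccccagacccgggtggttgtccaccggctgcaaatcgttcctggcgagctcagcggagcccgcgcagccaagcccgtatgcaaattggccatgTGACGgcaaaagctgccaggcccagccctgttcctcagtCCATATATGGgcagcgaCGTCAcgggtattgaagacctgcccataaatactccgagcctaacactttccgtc

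Windows of 8 members were searched, all but Egr1 and Egr3. The Egr2 gene has 5 annotated starts in the table, and the window shown is 1 of them. Among 32851 windows of this length, 17.8% held TGACG on either strand, and it occurred in 7 of the 8 members. The windows of Nr4a1, Nr4a2 and Nr4a3 each held 4 copies, whereas 0.137% of all windows held 4 or more. This core was added to the search after the sequences had been seen, so the count is a description only. Fos had 2 copies, Fosb and Junb 1 each, and Jun none. The CArG box matched in 1.47% of all windows and among the members only upstream of Egr2, in 4 of its 5 windows, which overlap in part. GCGGGGGCG matched in 2.57% of windows and upstream of Nr4a1 and Fosb. The full cAMP response element TGACGTCA (1.55% of windows), the AP-1 element TGACTCA with its reverse complement TGAGTCA (4.46%), the second Egr element GCGTGGGCG (0.536%) and the Nr4a element AAAGGTCA (1.34%) did not match in any member's window. The TGACG core is part of TGACGTCA, so those matches can overlap. A match shows only that the letters are there.

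Signals below are processed array intensities multiplied by 1 factor per array (0.815 to 1.25 for T cells, 0.958 to 1.023 for tissue), so that ratios between arrays of a set equal the folds given. Signals of different probes, and of T cell against tissue arrays, are not comparable. The share of probes well above background was 47.6% to 51.9% for T cells and 62.0% to 65.1% for tissue, and 0 spots were saturated. With 1 array per group no difference has a replicate check and no test was run, so neighbours in the order of signals cannot be separated from sample spread. Where libraries of 1 kind are said to lie above, below or apart from those of another, the share of all genes with such an order is not given. Such an order is therefore a description only. The median SD between repeated spots of a probe was 0.039 to 0.042 (log2), a technical error only. Differences are log2 values unless written as folds, and "at least" marks a bound where the dimmer array was not well above background. The T cell markers Cd3e, Cd3d, Cd3g, Cd4, Lck and Cd2 were above background in all 4 T cell libraries. Foxp3 measured 3843 (Treg) and 726 (nonTreg) in the brain and 7782 in spleen Treg, and was not above background in spleen nonTreg, so the library labelled brain nonTreg held Foxp3 transcripts. Foxp3 was not above background in any tissue library.

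The Nr4a and Fos genes separated the brain T cell libraries from the spleen ones, in Treg and in nonTreg alike, with higher signals in the brain. Egr2 did not separate them, and Egr3 was lower in the brain, by less than 2-fold. In brain Treg against spleen Treg, 8 of 10 members were at least 2-fold higher, where 17.2% of all 13779 genes compared were. Egr2 alone was at least 2-fold lower, where 11.7% of genes were. In brain nonTreg against spleen nonTreg, 8 of 10 members were at least 2-fold higher, where 17.8% of 13404 genes were, and none was 2-fold lower, where 12.1% were. The members' median was 3.17 in Treg and 3.64 in nonTreg, against 0.03 and 0.01 for all genes. Because the members were chosen with earlier results of these data known, these counts are descriptions only. Only the brain donors had a stroke, so organ, stroke and cell isolation cannot be told apart.

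**Figure D1:**
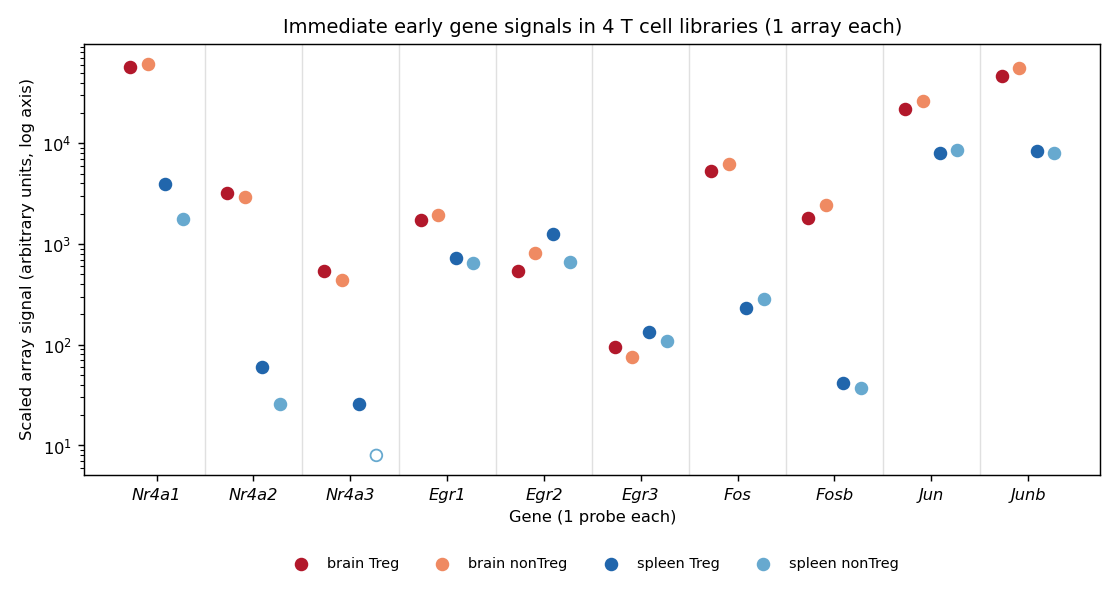
Scaled array signal (log axis, arbitrary units) of each member in the 4 T cell libraries, 1 array each; filled points were well above background and the open point was not. For Nr4a1, Nr4a2, Nr4a3, Fos, Fosb, Jun, Junb and Egr1 both brain libraries lie above both spleen libraries, whereas Egr2 is highest in spleen Treg (1268) and Egr3 is higher in both spleen libraries. The share of all genes with such an order is not given.

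Nr4a1, which encodes the receptor Nur77 and is used as a reporter of antigen receptor signalling, measured 57613 (Treg) and 61853 (nonTreg) in the brain, and 3916 (Treg) and 1790 (nonTreg) in the spleen. Both brain libraries were far above both spleen libraries, by 14.7-fold in Treg and 34.6-fold in nonTreg. Nr4a2, encoding Nurr1, had brain signals of 3245 (Treg) and 2962 (nonTreg) and spleen signals of 59.6 (Treg) and 25.6 (nonTreg). It had the largest difference of the members, 54.4-fold in Treg and 116-fold in nonTreg. Its other probe gave the same picture, with 3149, 3108, 62.0 and 16.6 in the same order of libraries, and differences of 5.67 and 7.54. With normexp background correction, which compresses dim signals, the Nr4a2 differences were 4.78 and 5.35.

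The 2 probes of Nr4a3, which encodes NOR-1, disagreed. Probe A_51_P128397, designed to transcript NM_015743, measured 536 (Treg) and 439 (nonTreg) in the brain and 26.1 in spleen Treg, and was not above background in spleen nonTreg (7.96). It was 20.6-fold higher in brain Treg than in spleen Treg and at least 35.5-fold higher in brain nonTreg than in spleen nonTreg. Probe A_66_P103105, designed to transcript NM_001307989, measured 125 (Treg) and 110 (nonTreg) in the brain, and 31.7 (Treg) and 36.3 (nonTreg) in the spleen. It was higher in the brain libraries as well, but by only 1.98 and 1.60. The probes also differed within the spleen, where the NM_015743 probe was at least 2.11-fold higher in Treg than in nonTreg and the other probe was at -0.20. With normexp correction the differences of the NM_015743 probe were 2.54 in Treg and 2.53 in nonTreg.

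**Figure D2:**
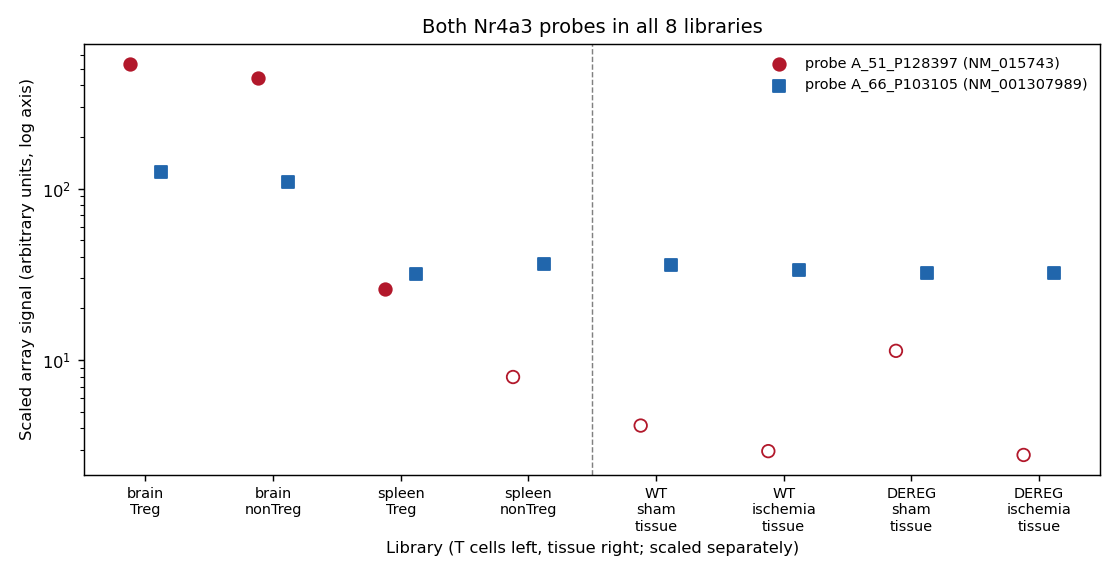
Scaled signal (log axis, arbitrary units) of both Nr4a3 probes in the 8 libraries; open points were not well above background, and T cell and tissue arrays were scaled separately. The NM_015743 probe spans 7.96 to 536 among the T cell libraries and is not above background in any tissue library, while the NM_001307989 probe stays between 32.1 and 35.9 in tissue.

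Fos and Fosb, the AP-1 subunits that need a Jun partner to bind DNA, were far higher in the brain libraries as well. Fos had brain signals of 5304 (Treg) and 6222 (nonTreg) and spleen signals of 231 (Treg) and 282 (nonTreg). Its brain signal was 23.0-fold higher in Treg and 22.1-fold higher in nonTreg. Fosb measured 1832 (Treg) and 2443 (nonTreg) in the brain, and 41.8 (Treg) and 36.8 (nonTreg) in the spleen. That is 43.8-fold and 66.4-fold more in the brain libraries, or 4.08 and 4.44 (log2) with normexp correction in place of 5.45 and 6.05. A second Fosb probe was barely above background in the brain libraries (10.8 and 19.4) and not above it in the spleen libraries.

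Junb and Jun, the partners of Fos proteins, were already bright in the spleen and differed less. Junb had brain signals of 46444 (Treg) and 55978 (nonTreg) and spleen signals of 8444 (Treg) and 7979 (nonTreg). It was 5.50-fold higher in the brain for Treg and 7.02-fold for nonTreg. A dimmer Junb probe gave larger differences for nonTreg (4.11 against 2.81) and similar ones for Treg (2.80 against 2.46). Jun measured 22086 (Treg) and 26241 (nonTreg) in the brain, and 8011 (Treg) and 8648 (nonTreg) in the spleen, a difference of 2.76-fold and 3.03-fold. The brain and spleen libraries did not overlap for either gene.

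The Egr genes did not move as a family. Egr1, an activator induced through SRF, had brain signals of 1726 (Treg) and 1953 (nonTreg) and spleen signals of 730 (Treg) and 650 (nonTreg), and was 2.37-fold and 3.01-fold higher in the brain. Egr2, a restrainer of T cell activation, measured 533 (Treg) and 807 (nonTreg) in the brain, and 1268 (Treg) and 658 (nonTreg) in the spleen. Spleen Treg was thus the highest library for Egr2 and brain Treg the lowest, a difference of 2.38-fold, while brain nonTreg was 1.23-fold above spleen nonTreg. Egr3, which acts alongside Egr2, had brain signals of 94.0 (Treg) and 74.7 (nonTreg) and spleen signals of 133 (Treg) and 110 (nonTreg). Its brain minus spleen differences were -0.50 and -0.55, short of 2-fold. Of its other probes, 1 gave -0.37 in Treg and at least 1.02 lower (log2) in nonTreg, and the other was above background only in spleen nonTreg.

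Treg and nonTreg of the same organ differed little beside this. Foxp3 itself was 5.29-fold higher in brain Treg than in brain nonTreg, and at least 630-fold higher in spleen Treg than in spleen nonTreg. In the brain all 10 members lay within 2-fold, from -0.60 for Egr2 to 0.33 for Egr3, where 4.63% of 13756 genes passed 2-fold on the Treg side and 2.86% on the nonTreg side. Jun, Junb, Fos, Fosb, Egr1, Egr2 and Nr4a1 were lower in brain Treg than in brain nonTreg, and Nr4a2, Nr4a3 and Egr3 higher. In the spleen the 3 Nr4a genes reached 2-fold on the Treg side, where 5.38% of 12546 genes did, and no member reached it on the nonTreg side, where 3.24% did. Nr4a1 was higher in spleen Treg by 2.19-fold, Nr4a2 by 2.33-fold (3.72-fold for its other probe) and Nr4a3 by at least 2.11-fold. With normexp correction only Nr4a1 stayed at 2-fold, with Nr4a2 at 0.60 and Nr4a3 at 0.22. The other Nr4a3 probe was at -0.20 as reported. Egr2 was 1.93-fold higher in spleen Treg. Fos, Fosb, Jun, Junb, Egr1 and Egr3 lay between -0.29 and 0.27 there.

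Subtracting the nonTreg organ difference from the Treg one left 3 of the 9 members measured on all 4 arrays beyond 2-fold, all below 0, where 3.79% of 11301 genes were. None was beyond 2-fold above 0, where 2.3% were. Egr2 stood at -1.54, Nr4a1 at -1.23 and Nr4a2 at -1.09, the last at -0.58 with normexp correction. For the other Nr4a2 probe the organ differences lay further apart, at 5.7 in Treg and 7.5 in nonTreg, against 5.8 and 6.9. Both Nr4a2 probes were dim in spleen nonTreg (25.6 and 16.6), where the lowest signal above background was 12.35. The remaining 6 members lay between -0.60 for Fosb and 0.06 for Egr3. For Nr4a1 and Nr4a2 the brain Treg and nonTreg libraries had nearly equal signals, and it was the spleen libraries that differed. Foxp3 separated the spleen libraries far more than the brain ones, and the part of this in the values above was not tested.

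Other genes of the pathway were taken from lists that, like the members, were chosen with earlier results of these data known. Their counts are descriptions only. Of all genes, 17.2% (Treg) and 17.8% (nonTreg) were at least 2-fold higher in the brain. Of 10 AP-1 and Egr partner genes with a probe, 9 were compared in each organ contrast, and the brain signal was at least 2-fold higher for 6 in Treg and 7 in nonTreg, with medians of 1.09 and 1.71. Atf3, a stress-induced partner of Jun, was higher in the brain by at least 424-fold (Treg) and at least 309-fold (nonTreg). Fosl2, a further Fos relative, was 48.9-fold and 21.2-fold higher, and the small Maf gene Maff 31.5-fold and 24.0-fold. Nab2, a corepressor of Egr proteins, was at -0.61 and -0.69. Of 28 other immediate early genes, 27 were compared, and 20 (Treg) and 22 (nonTreg) reached 2-fold on the brain side (medians 2.25 and 2.69). Tnfaip3, an inhibitor of NF-kappaB signalling, was 30.4-fold and 46.7-fold higher, Klf4 31.1-fold and 22.7-fold, and Rgs2 30.2-fold and 18.4-fold. Npas4, known as a neuronal activity gene, was the lower one in each, at -2.97 and -1.48.

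MAP kinase phosphatase genes, which end the signals that induce the members, reached 2-fold on the brain side for 4 of 6 in Treg and 5 of 6 in nonTreg. Dusp5 was 19.7-fold and 41.4-fold higher, Dusp1 13.9-fold and 21.6-fold, and Dusp4 17.5-fold and at least 151-fold. Genes of the upstream regulators mostly did not follow: of 24 compared in Treg 2 were higher and 6 lower, and of 23 compared in nonTreg 4 were higher and 3 lower, with medians of -0.52 and -0.51. Crem, whose short products repress cAMP-driven genes, was 27.3-fold and 46.1-fold higher, and Mef2c at least 28.5-fold and at least 21.2-fold. Elk4, an SRF partner, was 3.19-fold and 3.06-fold lower. Of 17 targets of the T cell receptor, 13 were higher in each brain library (medians 1.75 and 3.16), and Myb was 2.98-fold lower in nonTreg. Ifng was 19.8-fold higher in brain Treg and 66.6-fold in brain nonTreg, Il2 at least 10.9-fold and at least 33.8-fold, and Rgs1 3.74-fold and 74.5-fold. For Havcr2, encoding the inhibitory receptor Tim-3, the Treg difference was at least 34.4-fold.

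Heat shock genes and markers of other cells differed between the same libraries. Of 10 heat shock genes, 9 were at least 2-fold higher on the brain side of each contrast, with medians of 2.03 and 2.30. Hspa1a, an inducible chaperone, had signals of 42470 in brain Treg and 93930 in brain nonTreg and was not above background in either spleen library, like its neighbour Hspa1b. Hspb1 was 13.3-fold (Treg) and at least 219-fold (nonTreg) higher on the brain side. All 6 macrophage markers (Adgre1, Ms4a7, Mrc1, Cd68, Lyz2 and Cd14) were above background in both brain libraries and 1 of 6 in each spleen library. Their summed signal was 5440 in brain Treg and 2681 in brain nonTreg, against 168 and 146 in the spleen. Of 8 microglia markers all were above background in the brain libraries, and Tmem119, P2ry12 and Sall1 were not in either spleen library. The microglia sum was 45947 (Treg) and 26010 (nonTreg) in the brain, and 25483 (Treg) and 25203 (nonTreg) in the spleen. That sum understates the single markers. In Treg 6 of 8 were at least 2-fold higher in the brain and 1 lower (median 3.79). In nonTreg 5 of 7 compared were higher and none lower (median 3.24). Endothelial markers summed to 1144 (Treg) and 1899 (nonTreg) in the brain and 137 and 182 in the spleen, and neutrophil markers to 376 and 428 against 7 and 10. Between the brain libraries, the macrophage and microglia sums were higher in Treg, and the endothelial and heat shock sums lower. Of the 7 neuron markers, 5 were above background in each brain library, 4 in spleen Treg and 3 in spleen nonTreg, with sums of 1168 (Treg) and 1257 (nonTreg) in the brain and 2219 and 2248 in the spleen. Of the 5 excitatory neuron markers, 1 was above background in each brain library, 2 in spleen Treg and none in spleen nonTreg. The part of these cells, and of heat shock, in the members' differences was not tested.

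By likeness over the 4 T cell arrays, the genes nearest to the mean centred profile of the 9 members measured on all of them were Tmem121 and Sema7a (Euclidean distance 0.18 each), Nfkbid (0.20), Snx21 (0.23) and Tnfsf9 (0.24), among 11292 other genes. The mean profile stood at 1.34 (Treg) and 1.51 (nonTreg) in the brain, and at -1.22 (Treg) and -1.62 (nonTreg) in the spleen. Junb was the member closest to it (0.32), while Nr4a2 (3.52), Egr3 (3.39) and Egr2 (3.36) were the farthest.

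In brain tissue the members split at day 14 after stroke: Nr4a2 and Egr3 were lower in ischemic than in sham tissue, and Jun and Junb were higher. In WT ischemia against WT sham, 2 of 10 members were at least 2-fold lower, where 18.4% of 16968 genes were, and 1 was at least 2-fold higher, where 18.8% were. In DEREG ischemia against DEREG sham, 4 of 10 were at least 2-fold lower, where 22.1% of 17161 genes were, and 1 was higher, where 22.4% were. The members' medians were -0.11 and -0.16, near those of all genes (-0.14 and -0.06). Set as a group against these backgrounds, the members did not stand out, and the differences lay in named genes. Comparisons that name the same library share its array. In bulk tissue, fewer cells of a type and less RNA per cell cannot be told apart.

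**Figure D3:**
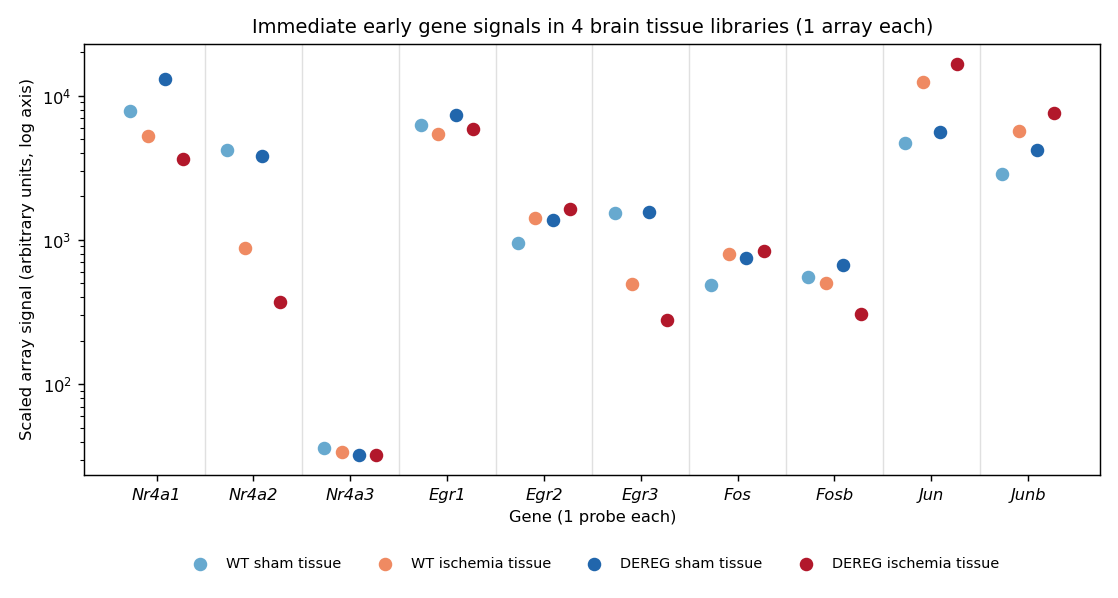
Scaled array signal (log axis, arbitrary units) of each member in the 4 brain tissue libraries, 1 array each, all well above background for the probes shown. Nr4a2 and Egr3 are lower in both ischemic libraries than in both sham libraries, and Jun and Junb are higher.

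Nr4a2, which in brain marks dopamine neurons and some cortical neurons and is also activity-induced, had signals of 4208 in WT sham, 874 in WT ischemia, 3822 in DEREG sham and 373 in DEREG ischemia. Both ischemic libraries lay below both sham libraries, by 4.81-fold in WT and 10.2-fold in DEREG. Its other probe gave -2.24 and -3.39, against -2.27 and -3.36. Egr3 had signals of 1529 in WT sham, 492 in WT ischemia, 1556 in DEREG sham and 278 in DEREG ischemia, which is 3.11-fold lower in WT and 5.60-fold lower in DEREG. Another Egr3 probe gave -1.96 and -2.87, and the dimmest -1.03 in WT and at least 1.61 lower (log2) in DEREG. The sham libraries were alike for both genes, at -0.14 and 0.02 between genotypes.

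Nr4a1 had signals of 7805 in WT sham, 5214 in WT ischemia, 13128 in DEREG sham and 3618 in DEREG ischemia. The stroke difference was -0.58 in WT and -1.86, or 3.63-fold lower, in DEREG. Fosb had signals of 549 in WT sham, 501 in WT ischemia, 673 in DEREG sham and 308 in DEREG ischemia, and was at -0.13 in WT and 2.18-fold lower in DEREG. For these genes DEREG sham was the highest library and DEREG ischemia the lowest.

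Jun had signals of 4677 in WT sham, 12517 in WT ischemia, 5566 in DEREG sham and 16662 in DEREG ischemia. It was 2.68-fold higher in WT and 2.99-fold higher in DEREG, with no overlap between ischemic and sham libraries. Junb had signals of 2856 in WT sham, 5706 in WT ischemia, 4184 in DEREG sham and 7605 in DEREG ischemia. Its fold of 1.998 in WT fell just short of the threshold, and it was 1.82-fold higher in DEREG. A dimmer Junb probe gave 1.16 and 0.65 (log2).

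The remaining members differed by less than 2-fold. Egr1 had signals of 6240 in WT sham, 5398 in WT ischemia, 7381 in DEREG sham and 5909 in DEREG ischemia, with differences of -0.21 and -0.32. Fos had signals of 489 in WT sham, 795 in WT ischemia, 754 in DEREG sham and 835 in DEREG ischemia, with WT sham below the others. Egr2 had signals of 944, 1407, 1375 and 1641 in the same order, again with WT sham the lowest. The NM_001307989 probe of Nr4a3 was flat, at 35.9, 33.7, 32.1 and 32.3. The NM_015743 probe, which differed most among T cells, was not above background in any of the 4 tissue libraries (2.80 to 11.3).

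DEREG against WT gave 1 member at 2-fold after stroke and none after sham surgery. In DEREG ischemia Nr4a2 was 2.34-fold lower than in WT ischemia, where 5.37% of 16857 genes were at least 2-fold lower. No member was 2-fold higher there, where 2.36% were. Egr3 (-0.82), Fosb (-0.70) and Nr4a1 (-0.53) were below 0 as well, while Jun (0.41) and Junb (0.41) were above it. In sham tissue all 10 members lay between -0.16 for Nr4a3 and 0.75 for Nr4a1, where 0.59% of 16273 genes passed 2-fold on the DEREG side and 0.449% on the WT side. Of the members 8 were above 0. The all-gene median was -0.01, and the share of all genes above 0 is not given. Sham libraries differed little over all genes, with a 95th percentile of 0.40, and Nr4a1, Fos (0.62), Junb (0.55) and Egr2 (0.54) lay above it. The stroke difference in DEREG minus that in WT was beyond 2-fold for Nr4a1 (-1.28) and Nr4a2 (-1.09), where 5.21% of 15120 genes were, and no member was beyond it above 0, where 0.906% were. Fosb lay just inside 2-fold, Egr3 at -0.85 and Fos at -0.55. Jun (0.16) and Junb (-0.14) had nearly equal stroke differences in the genotypes.

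**Figure D4:**
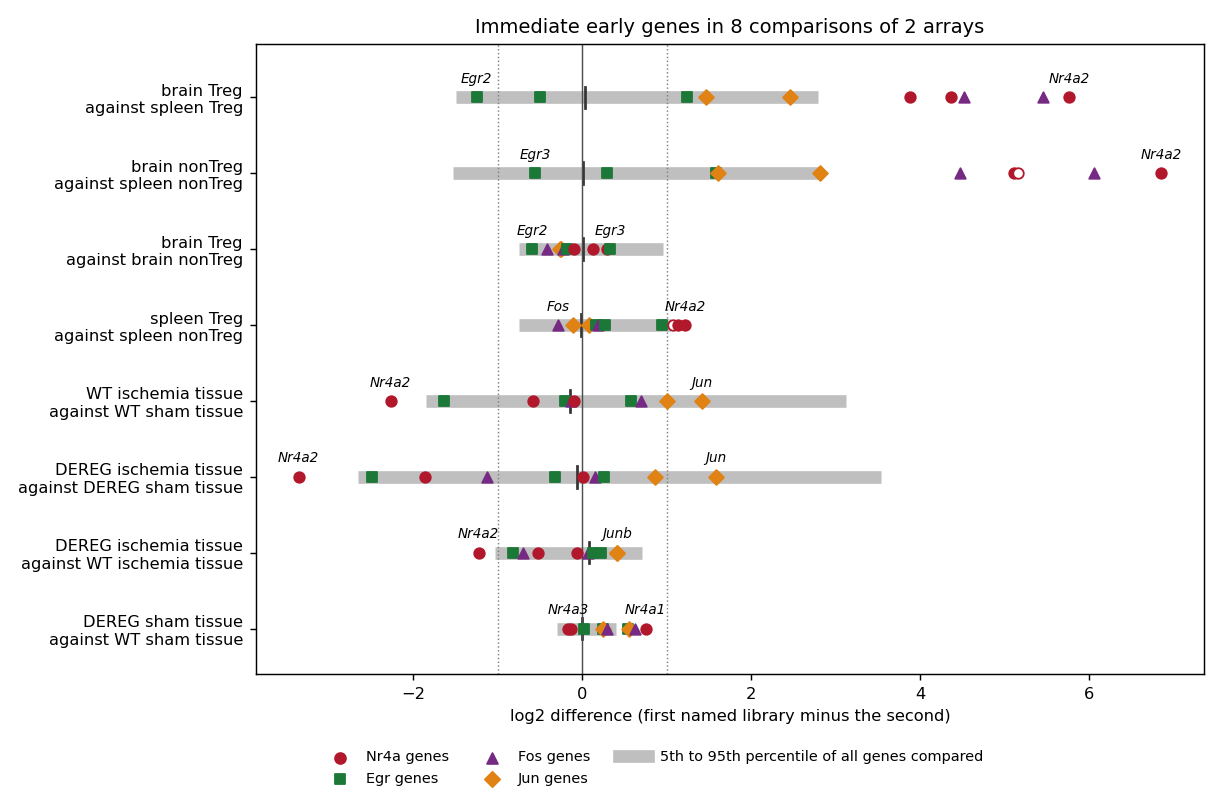
Log2 difference of the 10 members (points, by family; open points are lower bounds) in the 8 comparisons of 2 arrays, over the 5th to 95th percentile of all genes compared (grey bar, median as a tick); dotted lines mark 2-fold. The Nr4a and Fos genes lie beyond the grey bar in both brain against spleen comparisons, and in tissue Nr4a2 lies beyond it on the lower side after stroke in both genotypes.

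Among other immediate early genes in tissue, some that are known from neuronal activity were lower after stroke; they are named here after their values were seen. Npas4 was 4.51-fold lower in WT and 10.9-fold lower in DEREG, Homer1 3.65-fold and 5.24-fold, and Bdnf 2.47-fold and 4.43-fold. Arc, a synaptic regulator, was at -0.98, short of 2-fold, and -2.42. Of the 28 genes of that list, 3 were at least 2-fold lower in WT and 4 in DEREG, but 14 and 17 were at least 2-fold higher (medians 0.93 and 1.21). Over all genes 18.4% (WT) and 22.1% (DEREG) were lower, and 18.8% and 22.4% higher. Zfp36, which destabilises inflammatory mRNAs, was 13.3-fold and 15.5-fold higher, and Tnfaip3 4.81-fold and 9.03-fold. Nfkbiz, an NF-kappaB cofactor, was 4.52-fold higher in WT. Of the AP-1 and Egr partners 5 of 9 were higher in WT and 7 of 10 in DEREG, led by Atf3 (34.4-fold and 24.4-fold) and Batf (13.1-fold and 14.8-fold), with Maff at 6.58-fold and 9.16-fold. Egr4 was at -0.50 and -1.14.

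Dusp2 was the MAP kinase phosphatase gene that reached 2-fold after stroke, by 2.19-fold and 5.53-fold, and Dusp1 was at -0.01 and -0.35. The upstream regulators had 6 of 24 higher and 6 lower in each genotype, near the shares of all genes. Those shares were 18.8% higher and 18.4% lower in WT, and 22.4% higher and 22.1% lower in DEREG. Among them Elk3, an SRF partner of endothelial and myeloid cells, was 7.59-fold and 9.07-fold higher. Rxrg, a dimer partner of Nr4a1 and Nr4a2 that is expressed in striatum, was 12.8-fold and 12.6-fold lower. Nfatc1, a calcium-driven T cell factor, was 5.60-fold higher in WT. Of the list of T cell receptor targets 9 of 16 were higher in WT and 13 of 16 in DEREG, with Rgs1 at least 24.8-fold, Lag3 21.7-fold and Irf8 19.9-fold higher in WT. Of the T cell markers themselves 3 of 6 were at least 2-fold higher in WT and 1 was lower, and their sum was 1771 in WT sham and 1548 in WT ischemia. Which cells of the tissue gave the signals of the list was not tested. Heat shock genes, high in the brain T cells, had medians of -0.78 and -0.73 in tissue, and Hspa1a was at -0.88 and -0.76. In WT, Hsph1 was 3.43-fold and Hspa1b 2.19-fold lower, while Hspb1 was 3.88-fold higher.

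Between DEREG and WT ischemia, 2 of 10 AP-1 and Egr partners, 2 of 28 other immediate early genes and 1 of 6 phosphatase genes were at least 2-fold higher in DEREG, where 2.36% of all genes were. Of the 28, 1 was lower, where 5.37% of all genes were. Maff was 2.32-fold higher in DEREG, Fosl1 at least 4.37-fold, Gadd45b 2.32-fold, Tnfaip3 2.09-fold and Dusp2 2.86-fold, while Npas4 was 2.07-fold lower. Among T cell receptor targets 6 of 16 were at least 2-fold higher, with Tnfrsf18 at 3.91-fold, Ifng at 3.57-fold and Tnfrsf9 at 3.43-fold. No upstream regulator and no heat shock gene reached 2-fold, with Crtc1, a CREB coactivator, at -0.84 and Mapk8, which encodes the Jun kinase JNK, at -0.76. The T cell marker sum was 5175 in DEREG ischemia and 1548 in WT ischemia, beside 1674 in DEREG sham and 1771 in WT sham. Single markers did not all follow that sum. After stroke in WT, Cd3d was 11.7-fold higher, Cd2 at least 5.56-fold and Cd3g at least 3.24-fold. Cd4 was 2.93-fold lower there, and Cd3e and Lck lay within 2-fold. Foxp3 was not above background in any tissue library.

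Cell type markers moved alongside. All 7 neuron markers were at least 2-fold lower after stroke in each genotype, with medians of -1.79 and -2.69, and their summed signal was 208516 in WT sham, 60410 in WT ischemia, 195766 in DEREG sham and 28370 in DEREG ischemia. All 5 excitatory neuron markers (-2.35 and -4.11), all 6 striatal neuron markers (-3.20 and -3.84) and all 5 interneuron markers (-1.66 and -2.81) were lower as well. In DEREG ischemia against WT ischemia 5 of 5 excitatory, 3 of 7 neuron, 4 of 6 striatal and 2 of 5 interneuron markers were at least 2-fold lower, with medians of -1.81, -0.92, -1.05 and -0.98. All 6 macrophage markers were higher after stroke (medians 5.11 and 5.31), with sums of 2126 and 2252 in sham and 104727 and 121021 in ischemic tissue. The microglia sum was 68331 and 60172 in sham and 235909 and 276646 in ischemic tissue. Oligodendrocyte markers stayed within 2-fold in each genotype. For Nr4a2, Egr3, Nr4a1 and Fosb, DEREG ischemia was lowest and WT ischemia next, as for the neuron sum. Of these genes only Nr4a2 also had the sham libraries in the order of the neuron sum. The part of cell composition in the differences of these genes was not tested.

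**Figure D5:**
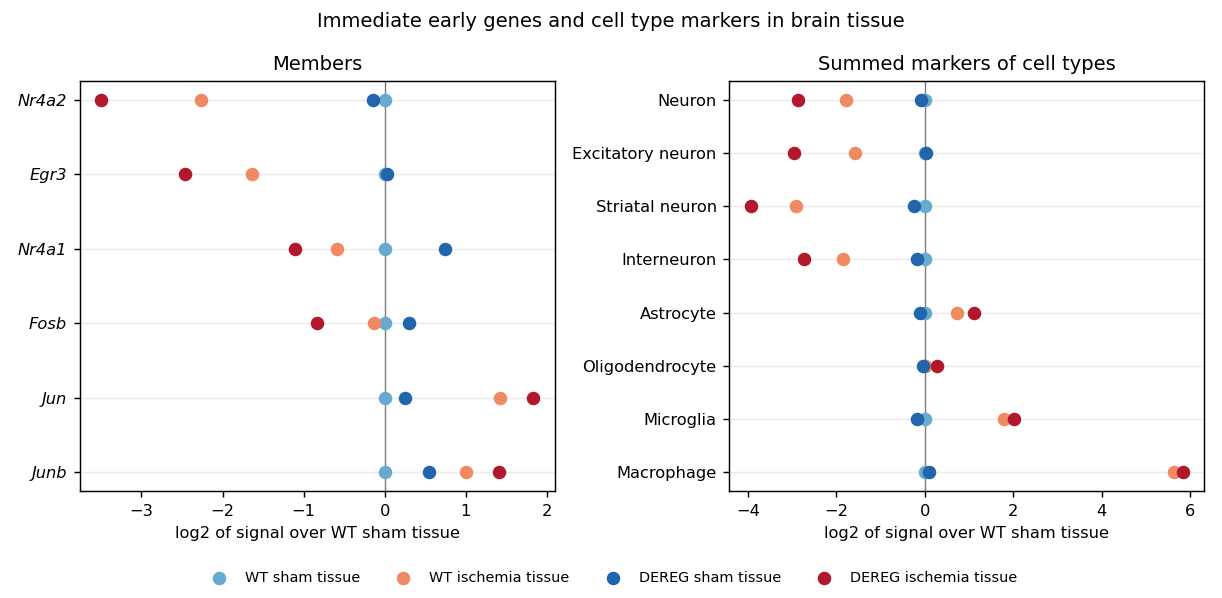
Log2 of the signal over WT sham tissue for 6 members (left) and for the summed signal of 8 marker lists (right) in the 4 tissue libraries, 1 array each. Nr4a2 and Egr3 lie to the left in both ischemic libraries, as do the 4 neuronal lists, and Jun and Junb lie to the right, as do the astrocyte, microglia and macrophage lists. Egr1, Egr2, Fos and Nr4a3 are not shown, and they differed by less than 2-fold after stroke in both genotypes.

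Over the 4 tissue arrays the mean centred profile of the 10 members was shallow, from 0.34 in DEREG sham to -0.29 in DEREG ischemia. Cd300lg (distance 0.03), Spag5 (0.05), Tmem174 (0.06), Cbx2 (0.07) and Anks6 (0.07) were nearest to it among 15110 genes. No member was closer than Egr1 (0.27), and Nr4a2 (2.56) and Jun (1.93), on opposite sides, were the farthest, so that mean describes no single member well.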

How the data were processed

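The 8 mouse RNA samples went to the 8 arrays of 1 slide, scanned at 1 time per the file headers, so no batch could be split. Brain tissue and T cells were extracted with different reagents per the labels' protocols, and no comparison crosses these sets. Each deposited scanner file gives a processed intensity (from Agilent Feature Extraction, version 10.7.1.1 in the submitters' processing notes), which per the file headers is background-subtracted and detrended, not normalized between arrays. The authors also deposited a series table, whose linear signal is in constant ratio to it for at least 99.89% of probes (tolerance 0.1%), about the intensity over its 75th percentile (column medians 0.068 to 0.123); it served as an alternative.

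Spots of a probe were averaged after leaving out outlier spots, log2-transformed and scaled by the 75th percentile of the array, over probes above background on all 4 arrays for T cells and over all probes for tissue. Of 56605 probes, 32994 matched 1 symbol through RefSeq and 23611 stayed unnamed. For each gene the brightest probe of a set was used (highest mean of its 4 arrays), and a gene was compared where that probe exceeded background on 1 or both arrays. For a bound, the dim side was raised to the lowest value above background on its array, unless its own value was higher. The threshold was 2-fold, and counting was checked on simulated arrays. Normexp (limma 3.58.1, offset 50) used the spots' median signal in place of the mean. Sequences were searched in Python 3.11.15.

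Named were all members, the 3 largest differences of each pathway list in 4 comparisons (further list genes that are named were chosen after their values were seen), and the 5 nearest genes per set. Of 173 list symbols 3 had no named probe. The members and lists were chosen with earlier results of these data known.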

Additional observations from a re-analysis of the deposited data

Results flagged for a closer look

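Several members had values of opposite sign in 2 settings of the same contrast. Each setting is 1 array against 1 array, and none of these differences was tested. Both values were at least 0.3 in size, before rounding, only for Egr2 between Treg and nonTreg and for Nr4a1 between DEREG and WT. In the other pairs 1 or both values were smaller, so no change of direction can be read from them. Between Treg and nonTreg, values in the brain and the spleen were -0.60 and 0.95 for Egr2 (difference -1.54), -0.10 and 1.13 for Nr4a1 (-1.23), -0.42 and 0.18 for Fosb (-0.60), -0.18 and 0.17 for Egr1 (-0.35), and -0.27 and 0.08 for Junb (-0.35). For Egr2 the brain minus spleen values also had opposite signs, -1.25 in Treg and 0.29 in nonTreg. Between DEREG and WT tissue, values after stroke and after sham surgery were -0.53 and 0.75 for Nr4a1 (difference -1.28), -0.70 and 0.30 for Fosb (-1.0), and -0.82 and 0.02 for Egr3 (-0.85). Nr4a3 differed after stroke by 0.01 in DEREG and -0.09 in WT, a difference of 0.10. Only those of Egr2 and Nr4a1 exceeded 2-fold.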

How the results depend on the processing

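Of the 34 member differences at 2-fold, 270 values under the 8 alternatives kept their sign, 263 of them at 2-fold, and none had the opposite sign. The number of members at 2-fold was 1 in place of 3 for spleen Treg against spleen nonTreg with normexp, and 2 in place of 1 for DEREG ischemia against WT ischemia when probes of a gene were summarised by their median. The gained call is Fosb, through a second probe that was not above background on either array, so it carries no information; the same probe sets the Fosb value of -0.55 for DEREG ischemia against DEREG sham. The tissue difference of differences had 1 member in place of 2 with the median as scaling point, where Nr4a2 was at -0.98. Junb in WT ischemia against WT sham, just short of 2-fold as reported, ranged from 0.83 to 1.17. Counts over all genes moved more. With normexp they were 2167 in place of 3991 and 2119 in place of 4007 for the brain against spleen comparisons (Treg, nonTreg), 277 in place of 1031 and 385 in place of 1081 for Treg against nonTreg (brain, spleen), and 576 in place of 1303 and 13 in place of 169 for DEREG against WT (ischemia, sham). With no filter on dim probes the last 4 were 2268, 2461, 2180 and 934, and among genes above background on both arrays 706 (spleen Treg against nonTreg) and 62 (sham). Of the sham counts, 56.8% were higher in DEREG as reported, 84.6% with normexp and 71.0% among genes above background on both arrays. The all-gene median of WT ischemia against WT sham was -0.31 in place of -0.14 with the median as scaling point. No paired analysis was possible because each group has 1 sample. Probes near background, such as those of Nr4a3 and of Nr4a2 and Fosb in the spleen, limit how well their folds are known.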
